A study of Mus musculus with 138 samples.

Results

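The GATA transcription factors Gata1, Gata2, Gata3, Gata4 and Gata6 were followed in single mouse embryos at the 2-cell stage. They were chosen by measured values: Gata1 was lower and Gata3 higher after removal of the chromatin remodeller SMARCA5 with an injected antibody and the family members were listed with them. All 5 were found among the 25900 genes of the count tables. Those antibody contrasts therefore chose the members, and the values of the members there are a description without a test. The maternal deletion experiment was not used by that choice, and the members were tested in it.

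The study asked how the genome of the early embryo is switched on without maternal SMARCA5 (also known as SNF2H), the ATPase that slides nucleosomes in ISWI complexes. In the first experiment, embryos labelled Smarca5 +/- (mat KO), from Smarca5 mat KO mothers and WT males, were compared with embryos labelled Smarca5 +/+, and sample titles of both groups carry the words matKO females. In the second, WT zygotes were injected for TrimAway, which uses the ubiquitin ligase TRIM21 to send antibody-bound protein to the proteasome, with an antibody to SMARCA5 (anti-SMARCA5) or with IgG, or were left uninjected. Libraries of that experiment were made at least 24 hours after injection. The labels give neither the strain and age of the mice nor the Cre driver of the deletion. Each library held 1 plate well, and the replicate number names a pool of embryos from several matings or injections.

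Of 135 embryo libraries, 116 held at least 100000 counts and were kept, with totals from 109007 to 12004992 and a median of 1469197. They were 22 Smarca5 +/+, 28 maternal deletion, 15 uninjected, 20 IgG and 31 anti-SMARCA5 embryos. Maternal deletion libraries were deeper than Smarca5 +/+ libraries, with medians of 1618486 and 545265 counts. All 6 IgG libraries of replicate 2 fell under the minimum, so IgG was left with replicates 1 and 3. The deepest library left out held 94536 counts. In the 3 wells without an embryo all 5 genes had a count of 0, at totals of 453 to 1875 counts. Values are given as CPM, counts per 1000000 counts of the library, and a gene was called detected in a library with more than 3 counts. Among low values odd counts outnumbered even ones, so a low count may not be a number of single reads.

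Smarca5 itself was at 90.8 ± 77.6 CPM (SD, n = 28) in maternal deletion embryos and at 450 ± 183 CPM (SD, n = 22) in Smarca5 +/+ embryos. In this experiment 3 libraries of replicate 2 were doubted. One labelled maternal deletion went against its label. It had 349 CPM of Smarca5 and 24.5 CPM of Gdf9, an oocyte-secreted growth factor whose median was 4377 CPM in its group and 52.0 CPM in the Smarca5 +/+ group. A pair labelled Smarca5 +/+ had the highest Gdf9 of that group, 645 and 350 CPM, with the next at 257 CPM, and Smarca5 of 158 and 209 CPM, with 0 and 2 controls lower. Their Gdf9 stayed far below the maternal deletion median, so they do not plainly go against their labels. Antibody injection targets the protein, so Smarca5 mRNA does not check it. Trim21 mRNA was detected in 30 of 31 anti-SMARCA5 libraries, in 8 of 10 IgG libraries of replicate 3 and in 0 of 10 IgG libraries of replicate 1. Summed markers of the 2-cell stage had medians of 991 CPM in Smarca5 +/+, 650 in uninjected, 847 in IgG and 690 in anti-SMARCA5 embryos, but 112 CPM in maternal deletion embryos, with a range of 6.75 to 1658 CPM. The 10 oocyte and maternal markers summed to a median of 9045 CPM after maternal deletion and 1365 CPM in Smarca5 +/+ embryos. The part of these marker levels in the GATA results was not tested. In whole-embryo libraries, fewer cells with a transcript and less of it per cell cannot be told apart.

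GATA factors bind DNA with zinc fingers that recognise the core letters GATA, and different members act in different lineages. GATA1 drives red blood cell and megakaryocyte genes, GATA2 maintains blood stem cells, and GATA2 and GATA3 act in the trophectoderm, the outer layer of the blastocyst that forms the placenta. GATA4 and GATA6 act in the primitive endoderm, which lines the inner cell mass and forms the yolk sac. These lineages form only after the 2-cell stage.

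The genes lie on separate chromosomes of GRCm38, with positions here from the count tables. Gata1 (ENSMUSG00000031162) spans chrX:7959260-7978071 on the minus strand, and Gata2 (ENSMUSG00000015053) spans chr6:88193891-88207030 on the plus strand. Gata3 (ENSMUSG00000015619) spans chr2:9857078-9890034 on the minus strand, and Gata4 (ENSMUSG00000021944) spans chr14:63198922-63271692 on the minus strand.

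The 250 bases before a transcription start are shown for 3 of the 5 genes, from RefSeq on GRCm38.p6. Of these, Gata2 and Gata3 rose and Gata1 fell after maternal deletion. Gata4, which also fell, is not shown, so falling and rising members cannot be compared by these letters. Each reads 5′ to 3′ on the strand of its gene, with every CG dinucleotide, the site of DNA methylation, in capitals. Windows that overlapped an exon of a GATA gene were left out, so none shown overlaps one. The Gata1 and Gata3 windows lie inside the spans given above, before a start within the gene. Which start the embryos used was not tested. The Gata3 window overlaps an exon of the antisense gene Gm13256. The intervals are chrX:7967911-7968160 for Gata1 (minus strand), chr6:88193641-88193890 for Gata2 (plus strand) and chr2:9878601-9878850 for Gata3 (minus strand).
Gata1: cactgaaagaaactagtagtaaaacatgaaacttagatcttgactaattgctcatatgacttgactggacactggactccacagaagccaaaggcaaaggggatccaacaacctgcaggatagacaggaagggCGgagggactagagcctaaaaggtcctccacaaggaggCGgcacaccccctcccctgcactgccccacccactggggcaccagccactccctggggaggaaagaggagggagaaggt
Gata2: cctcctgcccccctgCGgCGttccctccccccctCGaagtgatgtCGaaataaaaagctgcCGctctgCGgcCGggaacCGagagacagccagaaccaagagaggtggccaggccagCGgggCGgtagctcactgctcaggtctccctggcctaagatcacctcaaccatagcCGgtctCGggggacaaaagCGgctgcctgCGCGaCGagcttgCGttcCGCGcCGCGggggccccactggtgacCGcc
Gata3: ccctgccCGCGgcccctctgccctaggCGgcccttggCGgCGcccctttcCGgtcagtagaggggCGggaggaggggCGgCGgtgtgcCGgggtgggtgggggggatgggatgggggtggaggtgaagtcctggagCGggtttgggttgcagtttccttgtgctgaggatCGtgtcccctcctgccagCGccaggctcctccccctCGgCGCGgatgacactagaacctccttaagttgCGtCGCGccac

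The Gata1 window held 2 CG dinucleotides at 54.0% G and C, the Gata2 window 22 at 67.2% and the Gata3 window 19 at 70.0%. Over all 32851 RefSeq windows of this length the median was 6 CG. Fewer CG than in the Gata1 window were found in 18.8% of windows, and more than in the Gata3 window in 17.95%. GATAA or GATAG on either strand was present 1 time in the Gata1 window and 0 times in the Gata2 and Gata3 windows, and 37.5% of all windows held at least 1 match. These are descriptions of letters, and binding was not measured.

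Across the 5 groups, Gata1 and Gata4 had their lowest medians and Gata3 its highest in the maternal deletion and anti-SMARCA5 groups, while Gata2 and Gata6 followed neither order. Ordered by median level, Gata1 was at 140 CPM in Smarca5 +/+, 88.9 in uninjected, 54.8 in IgG, 4.12 in anti-SMARCA5 and 0.920 in maternal deletion embryos. For Gata4 the order was 107 CPM in uninjected, 101 in IgG, 71.1 in Smarca5 +/+, 33.6 in anti-SMARCA5 and 16.4 in maternal deletion embryos. Gata3 ran the other way, with medians of 40.6 CPM in maternal deletion, 23.6 in anti-SMARCA5, 4.31 in IgG, 1.34 in uninjected and 1.05 in Smarca5 +/+ embryos. Gata2 was at 42.7 CPM in anti-SMARCA5, 19.2 in uninjected, 14.5 in IgG, 11.3 in maternal deletion and 0 in Smarca5 +/+ embryos. Gata6 was low throughout, at 7.84 CPM in anti-SMARCA5, 3.77 in uninjected, 2.16 in IgG and 0 in both groups of the deletion experiment. The ranges of neighbouring groups in each of these orders overlapped. The 2 experiments were sequenced on different lanes, so a level set across them has no test.

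**Figure D1:**
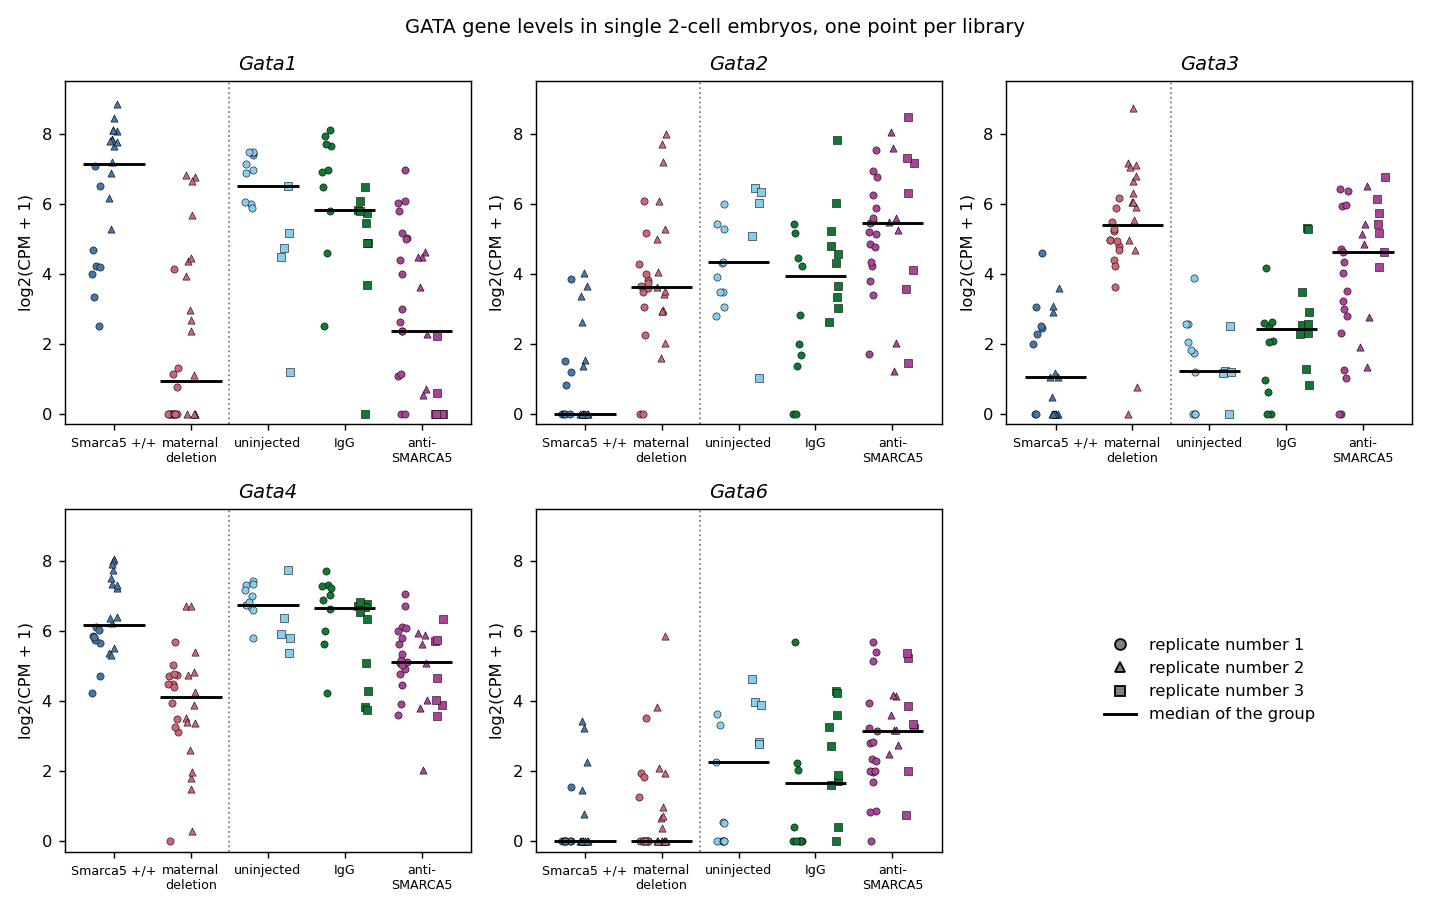
Level of each GATA gene as log2(CPM + 1) in the 116 kept embryo libraries, by group, with the marker shape giving the replicate number and the black line the group median. Gata1 and Gata4 medians are lowest in the maternal deletion and anti-SMARCA5 groups, where Gata3 medians are highest, and the dotted line separates the 2 experiments.

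In the maternal deletion experiment Gata1 and Gata4 fell and Gata2 and Gata3 rose, each by edgeR's quasi-likelihood test with Benjamini-Hochberg adjustment over all 8518 genes tested. The change was broad: 4825 genes (56.6%) were called at an adjusted p under 0.05, 30.3% higher and 26.4% lower, so that 4 called of 4 tested members has to be read against a background above 1 in 2. Gata6 did not pass the filter on low counts. The median change of all tested genes was 0.18 on the log2 scale, 0.09 with RLE size factors and -0.04 with library totals alone, and the 4 members kept their direction under each.

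Gata1, the red blood cell factor, ranged from 4.66 to 462 CPM in Smarca5 +/+ embryos and from 0 to 112 CPM after maternal deletion, with medians of 140 and 0.920 CPM. It was detected in 20 of 22 and 11 of 28 libraries, and 13 maternal deletion libraries had a count of 0, which by 3 counts allows up to 0.415 CPM in the deepest and 11.3 CPM in the shallowest of them. All 28 maternal deletion libraries lay below the Smarca5 +/+ median and 18 below the lowest Smarca5 +/+ library, so that the ranges overlapped only in part. Gata1 fell by 2.96 on the log2 scale (SE 0.65, edgeR adjusted p = 0.000167), a 7.76-fold lower level. The library with 112 CPM was the one that went against its label. Without it, left out alone after the data were seen, the log2 change was -3.29 (SE 0.65, edgeR adjusted p = 2.40e-05), and without the 3 doubted libraries -3.35 (SE 0.67, edgeR adjusted p = 3.14e-05).

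Gata4, a factor of primitive endoderm and heart, ranged from 17.9 to 269 CPM in Smarca5 +/+ embryos and from 0 to 104 CPM after maternal deletion, with medians of 71.1 and 16.4 CPM. It stayed detected in 24 of 28 maternal deletion libraries, against 22 of 22 controls. Of the 28, 26 lay below the Smarca5 +/+ median and 14 below its lowest library. Gata4 fell by 1.96 on the log2 scale (SE 0.40, edgeR adjusted p = 5.81e-05), or by 2.11 without the 3 doubted libraries (SE 0.40, edgeR adjusted p = 1.71e-05).

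Gata3, the trophectoderm factor, ranged from 0 to 22.8 CPM in Smarca5 +/+ embryos and from 0 to 427 CPM after maternal deletion, with medians of 1.05 and 40.6 CPM. It was detected in 10 of 22 and 25 of 28 libraries. Of the maternal deletion libraries, 23 of 28 exceeded every Smarca5 +/+ library, and the library with a count of 0 was the one that went against its label. Gata3 rose by 4.29 on the log2 scale (SE 0.59, edgeR adjusted p = 4.42e-08), a 19.6-fold higher level, and by 4.35 without the 3 doubted libraries (SE 0.56, edgeR adjusted p = 7.69e-09). Reads over Gata3 can also come from 3 genes that overlap it, and the use of strand in counting is not given in the sources used here. The antisense gene Gm13256 was at a mean of 3.33 CPM after maternal deletion and 0.0454 CPM in controls and was too low to be tested.

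Gata2, the blood stem cell factor, ranged from 0 to 15.1 CPM in Smarca5 +/+ embryos and from 0 to 252 CPM after maternal deletion, with medians of 0 and 11.3 CPM. It was detected in 4 of 22 and 25 of 28 libraries, and 10 of 28 exceeded every control. A count of 0 in a Smarca5 +/+ library allows between 0.350 and 25.5 CPM by 3 counts, so the shallowest controls could not have shown the median level of the deletion group. Gata2 rose by 3.77 on the log2 scale (SE 0.71, edgeR adjusted p = 1.86e-05), and by 3.65 without the 3 doubted libraries (SE 0.72, edgeR adjusted p = 2.85e-05).

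Gata6 (ENSMUSG00000005836), a primitive endoderm factor on chromosome 18 from 11052510 to 11085635, had a mean of 3.45 ± 11 CPM (SD, n = 28) after maternal deletion and 1.21 ± 2.75 CPM (SD, n = 22) in controls, and was detected in 6 of 28 and 2 of 22 libraries. A fit with no filter on low counts gave a log2 change of 1.80 (SE 0.98, edgeR adjusted p = 0.119). A difference was not detectable at this depth. Its highest library, at 57.2 CPM, also had 136 CPM of Gata3 and 0 CPM of Gata1, and without it the maternal deletion mean was 1.46 ± 3.21 CPM (SD, n = 27). The same library had 28.6 CPM of Gata5, another GATA gene of endoderm, which had a count of 0 in 25 of 28 maternal deletion libraries. The Gata5 mean after maternal deletion was 1.26 CPM with that library and 0.249 CPM without it, and 0 CPM in controls.

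Depth was matched by thinning every kept library to 100000 counts. Summed over the 22 Smarca5 +/+ and the 28 maternal deletion libraries, Gata1 then had 337 and 43 counts and Gata4 213 and 73. Gata2 had 9 and 95 counts, Gata3 5 and 198, and Gata6 4 and 7. The pairs of Gata1 to Gata4 had the direction of the means at full depth. The 4 and 7 counts of Gata6 came from 3 of 22 and 3 of 28 libraries and are too few to show a direction.

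The embryo collections, replicates 1 and 2, were sequenced on different lanes, and the levels differed between them. Gata1 medians in Smarca5 +/+ embryos were 17.4 CPM in collection 1 (n = 8) and 223 CPM in collection 2 (n = 14), against 0 CPM (n = 13) and 6.79 CPM (n = 15) after maternal deletion. Gata3 medians were 4.14 and 0.197 CPM in controls and 29.9 and 64.6 CPM after maternal deletion. Gata3 exceeded the control median in 13 of 13 embryos of collection 1 and in 14 of 15 of collection 2. Within collection 1 alone Gata3 rose by 2.58 on the log2 scale (SE 0.57, edgeR adjusted p = 0.000625), and within collection 2 by 5.51 (SE 0.85, edgeR adjusted p = 1.03e-05). The test of that difference gave 2.72 (SE 0.98, edgeR adjusted p = 0.148) and did not pass. Gata4 changed by -1.20 in collection 1 (SE 0.45, edgeR adjusted p = 0.0331) and by -2.15 in collection 2 (SE 0.58, edgeR adjusted p = 0.00409). With no filter on low counts the call of Gata4 in collection 1 was lost, at -1.31 (SE 0.53, edgeR adjusted p = 0.0547). Gata1 and Gata2 passed the filter in collection 2 only, with changes of -2.62 (SE 0.72, edgeR adjusted p = 0.00481) and 4.33 (SE 0.98, edgeR adjusted p = 0.000876). In collection 1 without a filter they changed by -3.89 (SE 0.79, edgeR adjusted p = 9.88e-05) and 2.79 (SE 0.92, edgeR adjusted p = 0.0186). No member passed the test of a difference between collections, which called 65 genes of 8518 (0.763%).

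Most maternal deletion embryos with remaining Gata1 were in collection 2. There Gata1 was detected in 10 of 15 embryos, from 0 to 112 CPM, against 1 of 13 in collection 1. Collection 2 also held deeper libraries, with a median total of 4686051 counts against 702651.

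After TrimAway the same 4 genes differed in the same directions, here as a description. Gata1 was at 17.7 ± 27.4 CPM (SD, n = 31) in anti-SMARCA5, 87.8 ± 81.0 CPM (SD, n = 20) in IgG and 95.2 ± 62.0 CPM (SD, n = 15) in uninjected embryos. Its range was 0 to 124 CPM with the antibody, 0 to 271 CPM with IgG and 1.27 to 177 CPM without injection, so that the groups overlapped. Of 31 anti-SMARCA5 embryos, 30 lay below the uninjected median and 28 below the IgG median. The log2 fold change was -2.30 (SE 0.52) against IgG and -2.29 (SE 0.54) against uninjected embryos. These comparisons share the anti-SMARCA5 libraries. Trim21 mRNA was detected in 0 of 10 IgG libraries of replicate 1, so values against IgG also set Trim21 against its absence there. The part of Trim21 in the values of the members was not tested.

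Gata4 was detected in every kept library of this experiment. It ranged from 3.12 to 132 CPM in anti-SMARCA5, from 12.4 to 208 CPM in IgG and from 40.8 to 215 CPM in uninjected embryos. Of 31 antibody embryos, 18 lay below every uninjected embryo, but only 3 below every IgG embryo. The log2 fold change was -0.96 (SE 0.24) against IgG and -1.10 (SE 0.24) against uninjected embryos.

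Gata3 was at 30.9 ± 30.7 CPM (SD, n = 31) in anti-SMARCA5, 7.58 ± 11.1 CPM (SD, n = 20) in IgG and 2.75 ± 3.50 CPM (SD, n = 15) in uninjected embryos. The highest values were 107, 38.2 and 13.7 CPM, and 19 of 31 antibody embryos exceeded every uninjected embryo, 10 of 31 every IgG embryo. The log2 fold change was 2.24 (SE 0.59) against IgG and 4.37 (SE 0.73) against uninjected embryos. Of the IgG embryos, 15 of 20 lay above the uninjected median.

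Gata2 was already present in the controls of this experiment. It was detected in 14 of 15 uninjected embryos, 16 of 20 IgG embryos and 30 of 31 anti-SMARCA5 embryos, against 4 of 22 Smarca5 +/+ embryos. The ranges were 1.03 to 85.8 CPM, 0 to 225 CPM and 1.34 to 354 CPM, with wide overlap. The log2 fold change of anti-SMARCA5 embryos was 1.53 (SE 0.52) against IgG and 1.47 (SE 0.52) against uninjected embryos. Because Smarca5 +/+ libraries were shallower, detection was also counted after thinning to 100000 counts. At least 1 count of Gata2 was then found in 12 of 15 uninjected and 10 of 20 IgG embryos. In anti-SMARCA5 and Smarca5 +/+ embryos it was found in 26 of 31 and 6 of 22.

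Gata6 was detected in 8 of 15 uninjected, 8 of 20 IgG and 25 of 31 anti-SMARCA5 embryos. Its highest values there were 23.8, 50.9 and 50.5 CPM. The log2 fold change was 1.11 (SE 0.61) against IgG and 1.63 (SE 0.64) against uninjected embryos. Against uninjected embryos the value was 0.65 (SE 0.71) without replicate 1 and 2.66 (SE 0.82) without replicate 3. All 5 uninjected embryos of replicate 3 had Gata6, at 5.83 to 23.8 CPM.

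**Figure D2:**
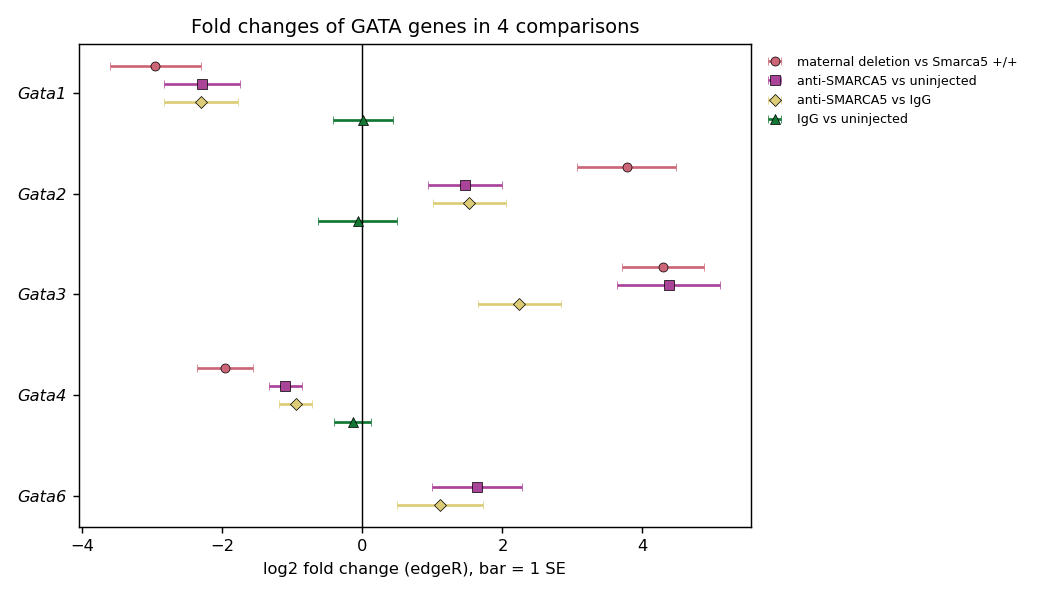
Log2 fold change of each GATA gene from edgeR in 4 comparisons, with bars of 1 SE. Gata1 and Gata4 are below 0 and Gata2, Gata3 and Gata6 above 0 in each anti-SMARCA5 or maternal deletion comparison shown. IgG against uninjected lies near 0 for Gata1, Gata2 and Gata4 and has no point for Gata3 and Gata6. A gene that failed the filter on low counts has no point.

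IgG was also compared with uninjected embryos. The log2 fold changes were 0.01 (SE 0.43) for Gata1, -0.07 (SE 0.57) for Gata2 and -0.14 (SE 0.26) for Gata4, and Gata3 and Gata6 failed the filter. Gata3 means were 11.2 ± 14.3 CPM (SD, n = 10) with IgG and 1.71 ± 1.75 CPM (SD, n = 5) without injection in replicate 3, and 3.97 ± 5.01 and 3.27 ± 4.10 CPM (SD, n = 10 each) in replicate 1. The highest 2 IgG embryos of replicate 3 held 38.2 and 37.7 CPM. Over all genes, edgeR called 0 of 9915 (0%), with 1440 at an unadjusted p under 0.05 and 261 called by DESeq2.

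The antibody comparisons called 317 of 10447 genes against IgG (3.03%; 1.73% higher, 1.3% lower) and 2999 of 10750 against uninjected embryos (27.9%; 17.5% higher, 10.4% lower). With library totals in place of TMM the split turned, to 17 higher and 47 lower against IgG and to 409 higher and 1874 lower against uninjected embryos, where the median change of all genes moved from 0.13 to -0.29. Without replicate 1 edgeR called 0 genes against IgG, with 1210 at an unadjusted p under 0.05, and 1 against uninjected embryos. Nothing about the members is read from these shares, since the antibody contrasts chose them.

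Among anti-SMARCA5 embryos, replicate 3 had the lowest median of Gata1 and the highest of Gata3. Gata1 medians were 14.9 CPM in replicate 1 (n = 17), 11.3 CPM in replicate 2 (n = 7) and 0 CPM in replicate 3 (n = 7), where 5 of 7 embryos had a count of 0. Gata3 medians were 10.2, 27.6 and 41.7 CPM in the same order. Control Gata1 was lower in replicate 3 too, with medians of 132 and 25.5 CPM in uninjected and 121 and 47.4 CPM in IgG embryos of replicates 1 and 3. Replicate 3 also had the lowest Smarca5 mRNA, with a median of 134 CPM against 387 and 242 CPM. Its summed 2-cell markers had a median of 180 CPM, against 690 CPM over all anti-SMARCA5 embryos. Their part in the GATA levels was not tested. Leaving out the 1 anti-SMARCA5 library without Trim21 moved the log2 fold change of each member by less than its SE, from 2.24 to 2.29 for Gata3 against IgG.

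In single embryos, higher Gata1 went with lower Gata3. Over the 66 TrimAway libraries, Pearson's r of their log2 levels was -0.78, and -0.67 after centring on group and replicate. Over the 50 libraries of the deletion experiment r was -0.69, and -0.31 after centring. The pair was chosen for opposite changes in TrimAway libraries, so a negative r over them, before centring, follows from the choice. The deletion values include the library against its label, at 112 CPM of Gata1 and 0 CPM of Gata3. For the libraries without it, r was not computed. These points share lanes, depth and group differences, and r is given as a description. Gata1 and Gata4 were alike in the TrimAway libraries (r = 0.61, centred 0.40) but not within the groups of the deletion experiment (r = 0.45, centred -0.06). Gata2 and Gata3 were less alike, at r = 0.40 and 0.55, and centred at 0.22 and 0.06. Gata1 with Gata2 had r = -0.45 in the TrimAway libraries, centred -0.21. In the deletion experiment that pair had r = -0.26, but 0.39 after centring.

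**Figure D3:**
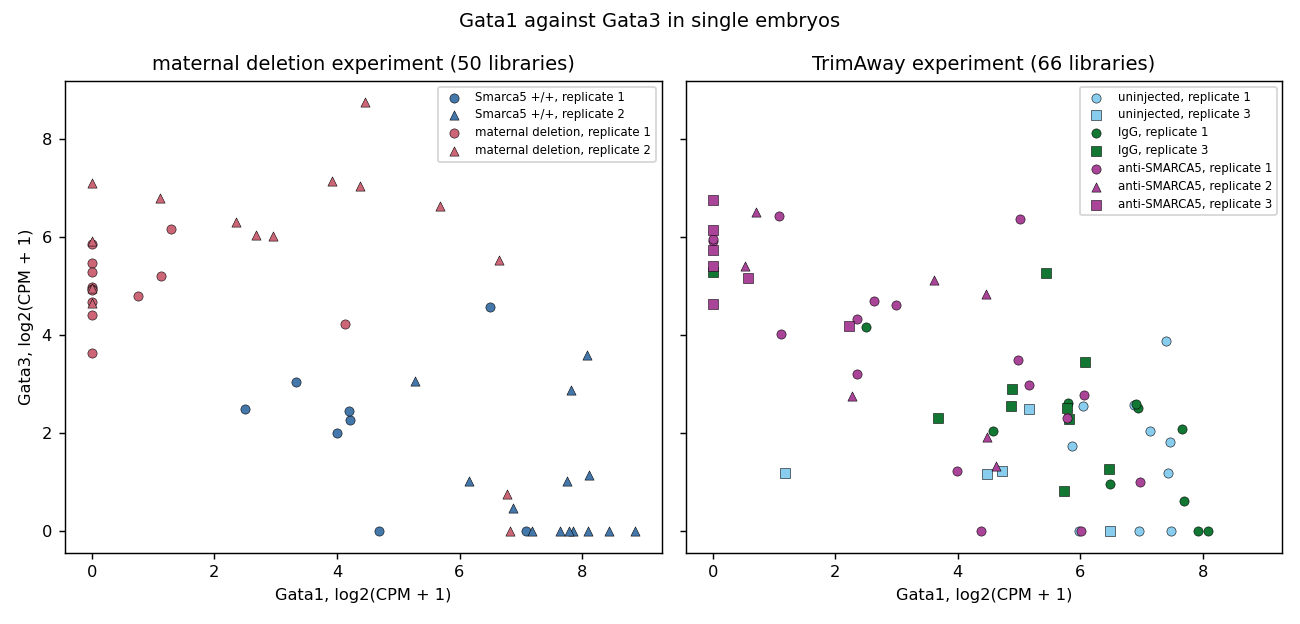
Gata3 against Gata1 as log2(CPM + 1) in each embryo, with colour for group and marker shape for replicate number. The pair was chosen for opposite changes after TrimAway. By CPM, uncorrected for exon length, Gata1 was above Gata3 in 21 of 22 Smarca5 +/+, 14 of 15 uninjected and 18 of 20 IgG embryos. By the same measure Gata3 was above Gata1 in 25 of 28 maternal deletion and 21 of 31 anti-SMARCA5 embryos. Pearson's r was -0.69 in the deletion experiment and -0.78 after TrimAway.

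Levels were set side by side between genes as CPM per kilobase of exon, with exon lengths from GENCODE M21 on the same build. Per kilobase, Gata1 was the highest member in Smarca5 +/+ embryos, at a mean of 63.2 ± 52.0 (SD, n = 22), with Gata4 at 27.8 ± 20.5 and Gata3 at 0.851 ± 1.35. That order held in collection 2, with medians of 91.3 for Gata1 and 39.2 for Gata4, and was turned in collection 1, with 7.13 and 13.9. After maternal deletion Gata3 was at 16.6 ± 20.4 (SD, n = 28), Gata1 at 6.75 ± 13.7, Gata2 at 6.70 ± 11.5 and Gata4 at 5.86 ± 6.67, all within their spread. The medians were 10.2 for Gata3, 4.19 for Gata4, 2.098 for Gata2 and 0.377 for Gata1, whose mean rests on a few embryos. In anti-SMARCA5 embryos Gata2 was at 13.2 ± 15.5 (SD, n = 31), Gata4 at 10.7 ± 7.40, Gata3 at 7.77 ± 7.73 and Gata1 at 7.25 ± 11.2, within their spread. Gata3 exceeded Gata1 per kilobase in 0 of 22 Smarca5 +/+, 24 of 28 maternal deletion, 0 of 15 uninjected, 2 of 20 IgG and 19 of 31 anti-SMARCA5 embryos. The share of Gata2 and Gata3 in the sum of Gata1, Gata2, Gata3 and Gata4, a measure chosen after the values were seen, had medians of 1.25% in Smarca5 +/+ and 72.9% in maternal deletion embryos. It was 6.28% in uninjected, 9.05% in IgG and 60.4% in anti-SMARCA5 embryos, and ranged from 3.67% to 91.6% in the last group.

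**Figure D4:**
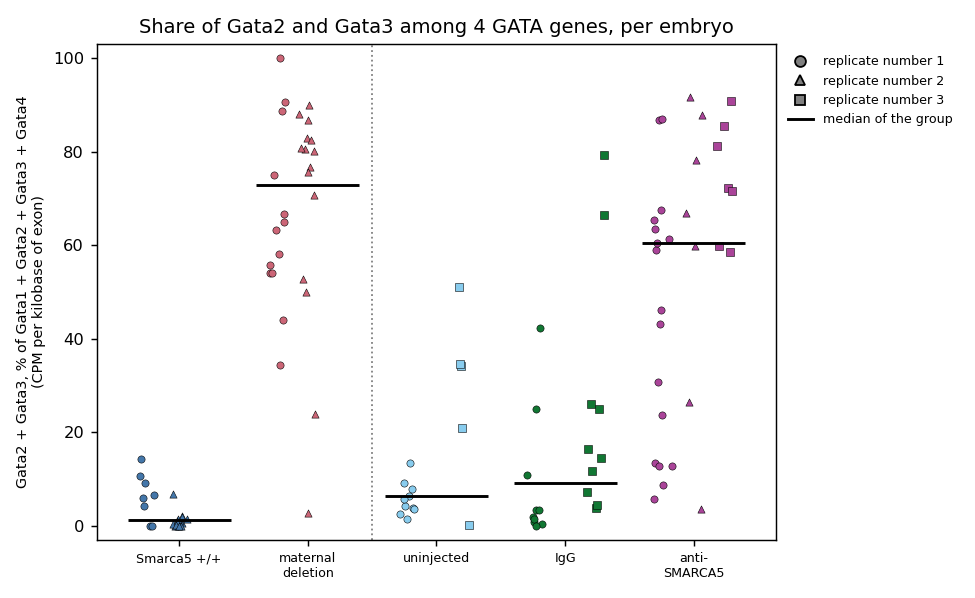
Share of Gata2 plus Gata3 in the sum of 4 GATA genes, in percent of CPM per kilobase of exon, for each embryo, with group medians as lines and replicate numbers as shapes. Smarca5 +/+ embryos lie at 0% to 14.3% and maternal deletion embryos at 2.76% to 100%, where the lowest is the library against its label and the next is at 23.8%. The lowest anti-SMARCA5 embryo, at 3.67%, is the one without Trim21, and the next is at 5.69%.

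All embryos expressed at least 1 member. In Smarca5 +/+ embryos Gata1 was detected in 20 of 22 and Gata4 in 22 of 22, and both together in 20. After maternal deletion Gata2 with Gata3 was found in 23 of 28, Gata2 with Gata4 and Gata3 with Gata4 in 21 of 28 each, and Gata1 with Gata4 in 8 of 28. There Gata1 was detected in 11, Gata2 and Gata3 in 25 each and Gata4 in 24 of 28. No pairing is read from these joint counts. All 5 members were detected in 1 of 22, 4 of 28, 4 of 15, 6 of 20 and 11 of 31 embryos of the Smarca5 +/+, maternal deletion, uninjected, IgG and anti-SMARCA5 groups.

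The genes most like Gata1 across the 66 TrimAway libraries, among 11699 genes, were Rps19bp1 (r = 0.86), Gm13718 (0.86), Cstf1 (0.85), Map1lc3b (0.85) and Kcnk6 (0.85). Over the 50 libraries of the deletion experiment their r with Gata1 lay between 0.72 and 0.86. The genes most like Gata3 were Gcap14 (r = 0.84), Ccni (0.79), Cyb5r4 (0.78), Spire1 (0.78) and Stxbp5 (0.78), with 0.64 to 0.85 in the deletion experiment. Centred on group and replicate, r in the deletion experiment lay between 0.18 (Rps19bp1) and 0.55 (Map1lc3b) with Gata1. With Gata3 it lay between 0.35 (Stxbp5) and 0.59 (Gcap14).

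Genes that work with GATA factors or carry related zinc fingers moved in both directions. Of 10 other genes with GATA-type zinc fingers, 7 were tested after maternal deletion, and 2 rose and 2 fell, with a median log2 change of 0.18, the value over all genes. Over all genes 30.3% were called higher and 26.4% lower. Mta2, a subunit of the NuRD remodelling and deacetylase complex, fell from a mean of 273 to 37.1 CPM (log2 change -2.66, SE 0.50, edgeR adjusted p = 1.79e-05). Gatad2b, another NuRD subunit, fell (-0.93, SE 0.27), and Gatad1 (2.09, SE 0.50) and Gatad2a (0.50, SE 0.21) rose. Against uninjected embryos 8 were tested after anti-SMARCA5, of which 2 rose and 3 fell, with Mta2 at -1.33 (SE 0.41, edgeR adjusted p = 0.0146). Over all genes 17.5% were called higher and 10.4% lower there. Against IgG the 8 tested genes had a median of 0.10, against 0.04 over all genes.

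Of 18 cofactors and partners, 17 were in the tables and 10 were tested after maternal deletion. There 3 rose and 2 fell, against 56.6% called over all genes, at a median of 0.54 against 0.18 over all genes. Ep300, a histone acetyltransferase, fell (-1.35, SE 0.22, edgeR adjusted p = 1.40e-06), and so did Rcor1, a corepressor (-0.83, SE 0.23). The paralogous acetyltransferase Crebbp rose (0.80, SE 0.22), as did the basic helix-loop-helix factor Tcf3 (2.00, SE 0.55). Against uninjected embryos Crebbp rose by 0.56 (SE 0.21) and Ep300 fell by 0.44 (SE 0.16) after anti-SMARCA5, 2 of 10 tested. Over all genes 27.9% were called there. Against IgG the adaptor gene Lmo4 was the 1 gene called of 11, at 1.45 (SE 0.42), a gene named after its values were seen. Over all genes 3.03% were called against IgG.

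The erythroid genes that GATA1 activates in blood were mostly too low to be tested. Of 20 listed genes 16 were in the tables, and 0 passed the filter in the deletion experiment. The alpha-globin gene Hba-a1 had means of 0.588 CPM in Smarca5 +/+ and 2.65 CPM in maternal deletion embryos. Gfi1b, a GATA1 target in blood, had means of 2.92 and 2.26 CPM. In the TrimAway comparisons 1 gene, Nfe2, was tested and was not called, a gene named after its values were seen.

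Of 18 trophectoderm genes, 5 were tested after maternal deletion, and 3 rose and 1 fell, where 30.3% of all genes were called higher and 26.4% lower. Fgfr2, a growth factor receptor, rose from a mean of 4.94 to 59.6 CPM (log2 change 3.98, SE 0.64, edgeR adjusted p = 1.33e-06). Dlx3 (3.15, SE 0.80) and Id2 (1.81, SE 0.60) also rose, and Tfap2c, which acts with GATA3 in trophectoderm, fell (-1.15, SE 0.43). The median of the 5 was 1.81, against 0.18 over all genes. After anti-SMARCA5, 7 of 13 tested rose and 2 fell against uninjected embryos (17.5% and 10.4% of all genes), at a median of 1.29 against 0.13 over all genes. Fgfr2 (1.01, SE 0.28), Dlx3 (1.26, SE 0.49) and Id2 (1.81, SE 0.42) were among those that rose and Tfap2c (-0.80, SE 0.27) fell. Against IgG 2 of 13 rose and 0 fell (1.73% and 1.3% of all genes).

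Of 18 primitive endoderm genes, 3 were tested after maternal deletion, and 2 rose, where 30.3% of all genes were called higher. Lamb1, a laminin chain of the basement membrane, rose from a mean of 21.01 to 653 CPM (log2 change 5.22, SE 0.54, edgeR adjusted p = 4.70e-11), and Lamc1 rose by 1.82 (SE 0.66). After anti-SMARCA5 3 of 8 rose against uninjected embryos and 2 of 8 against IgG, with Lamb1 at 0.88 (SE 0.27) and 0.94 (SE 0.24). Over all genes 17.5% and 1.73% were called higher in these comparisons. Of 12 inner cell mass and pluripotency genes, 6 were tested after maternal deletion, and 2 rose and 1 fell (30.3% and 26.4% of all genes). Klf4 (1.36, SE 0.34) and Pou5f1 (1.06, SE 0.38) rose and Fgf4, the growth factor that signals to primitive endoderm, fell (-4.16, SE 0.79, edgeR adjusted p = 1.99e-05). After anti-SMARCA5 2 of 8 rose and 2 fell against uninjected embryos (17.5% and 10.4% of all genes), with Fgf4 at -1.55 (SE 0.42). These lists were drawn up with earlier results of these data known, and nothing particular to them is read from their counts. With library totals in place of TMM, 1 of the 18 list genes called after maternal deletion and 10 of the 23 called against uninjected embryos lost the call, as did 5 of the 6 called against IgG, and 0 of these changed sign.

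**Figure D5:**
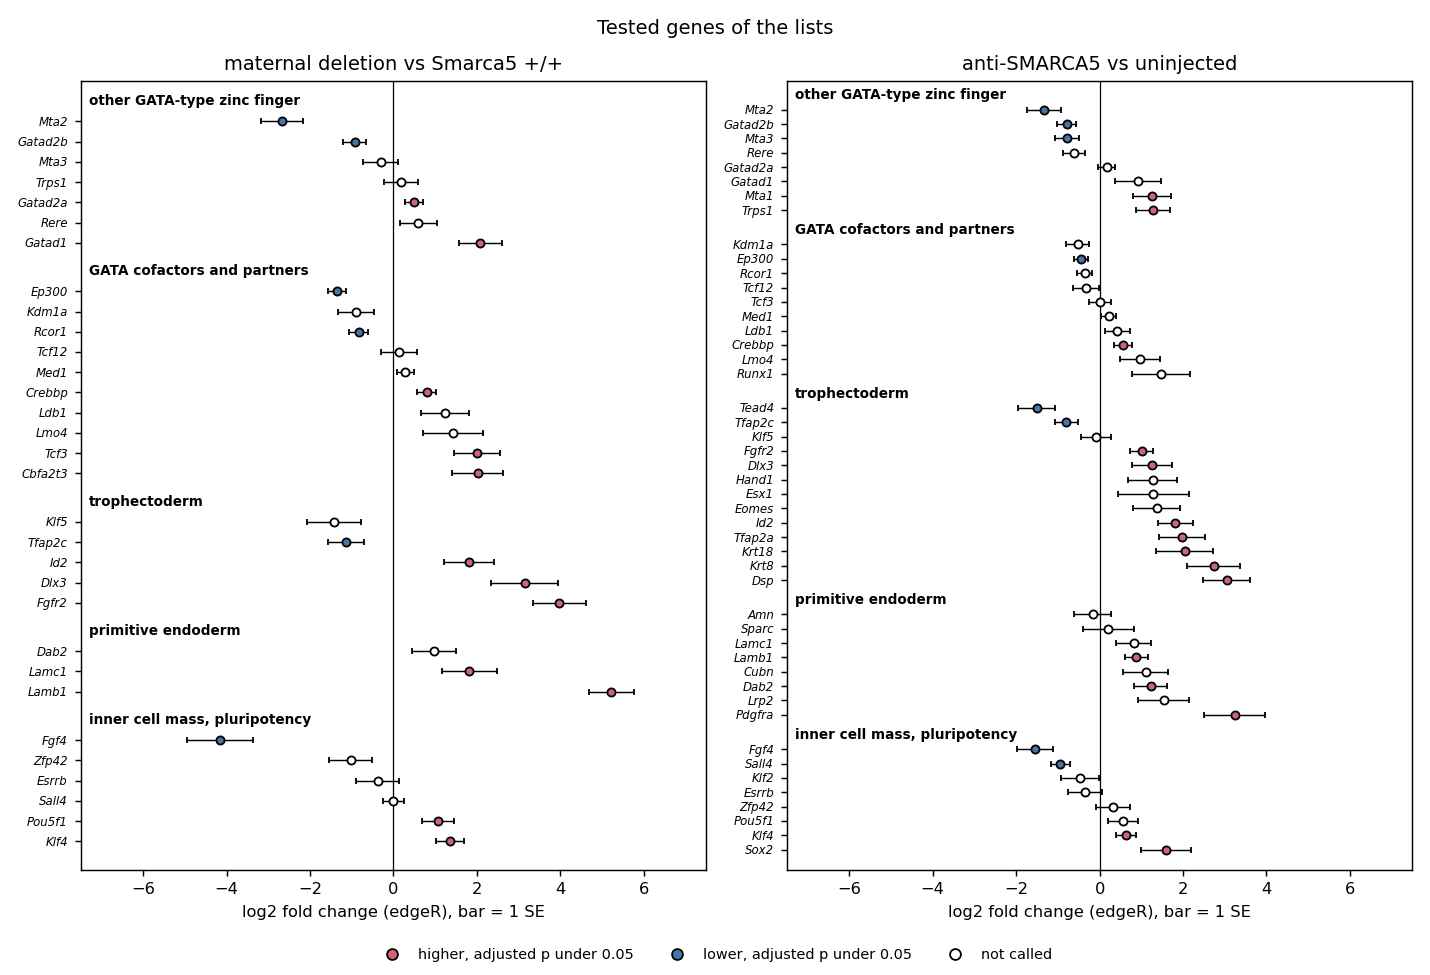
Log2 fold change with bars of 1 SE for each tested gene of 5 lists, after maternal deletion (left) and for anti-SMARCA5 against uninjected embryos (right). Filled points passed an edgeR adjusted p under 0.05. Fgf4 and Mta2 are below 0 and Fgfr2, Id2 and Lamb1 above 0 in both panels.

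Markers of other cells were set beside these results, because granulosa and cumulus cells adhere to embryos and express Gata4 and Gata6. Of 12 granulosa and cumulus markers, 1 was detected in most Smarca5 +/+ and 1 in most maternal deletion libraries. The summed level had a median of 73.2 CPM in Smarca5 +/+ and 30.4 CPM in maternal deletion embryos (ranges 0 to 248 and 0 to 126). Amhr2 had a median of 68.4 CPM in Smarca5 +/+ and 0 CPM in maternal deletion embryos, and was the 1 marker of this list with a lower median after maternal deletion. Star was detected in 3 of 22 and 15 of 28 of these libraries and Cyp19a1 in 0 of 22 and 11 of 28, with medians of 4.41 and 1.76 CPM after maternal deletion and 0 in controls. Foxl2, Fshr and Inha had medians of 0 in both groups. In the TrimAway groups the summed medians were 75.5 CPM in uninjected, 58.2 in IgG and 52.6 in anti-SMARCA5 embryos, with ranges of 39.7 to 130, 3.94 to 137 and 5.79 to 127. In the same order Amhr2 had medians of 56.3, 41.7 and 23.1 CPM, Tnfaip6 2.74, 3.79 and 5.55 CPM and Star 3.76, 1.85 and 3.02 CPM. Foxl2 was detected in 0 of 15, 2 of 20 and 7 of 31 of these libraries, and Cyp19a1 in 4, 1 and 12. The sum therefore does not stand for each marker. Of 6 blood cell markers 5 were in the tables, and their sum had medians of 0 in Smarca5 +/+ and 1.62 CPM in maternal deletion embryos (highest 14.7 and 54.9). The medians were 6.47 CPM in uninjected, 4.02 in IgG and 12.6 in anti-SMARCA5 embryos, with highest sums of 1276, 73.8 and 697 CPM. Ptprc, which defines white blood cells, had a median of 0 in each group. An uninjected embryo of replicate 3 had 1243 CPM of Lyz2, a myeloid gene, with 19.1 CPM of Ptprc, and it had the lowest Gata1 of its group, 1.27 CPM. An anti-SMARCA5 embryo of replicate 2 had 622 CPM of Lyz2 with 74.9 CPM of Ptprc, and 90.2 CPM of Gata3. Without these embryos, left out after the data were seen, the log2 fold changes against uninjected embryos were -2.34 (SE 0.53) for Gata1 and 4.23 (SE 0.75) for Gata3, and against IgG -2.26 (SE 0.52) and 2.13 (SE 0.59). The 6 markers of later trophectoderm and primitive endoderm summed to medians of 0.0417 CPM in Smarca5 +/+, 54.8 in maternal deletion, 8.83 in uninjected, 10.8 in IgG and 49.4 in anti-SMARCA5 embryos. Cdx2, which defines trophectoderm, had a median of 0 after maternal deletion, detected in 8 of 28 embryos, against 0 of 22 Smarca5 +/+ embryos. After TrimAway it was detected in 0 of 15 uninjected, 4 of 20 IgG and 16 of 31 anti-SMARCA5 embryos. Krt8, Krt18, Pdgfra, Sox17 and Sox7 were detected in 15, 16, 20, 8 and 3 of 28 maternal deletion embryos. In Smarca5 +/+ embryos the same genes were detected in 1, 5, 2, 2 and 1 of 22. The part of these markers in the GATA results was not tested.

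Of the nearest genes on either side, 4 were tested after maternal deletion. Hdac6, which precedes Gata1 on the X chromosome, changed by -1.09 after maternal deletion (SE 0.50, edgeR adjusted p = 0.0593) and fell by 1.03 against uninjected embryos after anti-SMARCA5 (SE 0.35, edgeR adjusted p = 0.0237). Rpn1, before Gata2, changed by 0.44 after maternal deletion (SE 0.60, edgeR adjusted p = 0.541). Mib1 and Rbbp8, on either side of Gata6, changed by -0.30 (SE 0.30, edgeR adjusted p = 0.395) and 0.14 (SE 0.21, edgeR adjusted p = 0.569). Against uninjected embryos Rbbp8 rose by 0.70 after anti-SMARCA5 (SE 0.25, edgeR adjusted p = 0.0327). The neighbours of Gata3 and Gata4 were too low to be tested in the deletion experiment.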

How the data were processed

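Polyadenylated RNA of single 2-cell mouse embryos was read by scNMT-seq with Nextera XT, per the labels' protocols. The authors deposited 2 tables of raw counts per gene, aligned to GRCm38 with HISAT2 per the file headers. Trim Galore 0.6.5, cutadapt 2.3 and HISAT2 2.1.0 are named in the submitters' processing notes. Strand use and duplicate handling are not given in the sources used here.

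Lines sharing an identifier were summed. Libraries with under 100000 counts were left out. Each comparison was fitted on its own groups with edgeR 4.0.16 (robust quasi-likelihood F test, TMM, filterByExpr, Benjamini-Hochberg adjustment over all tested genes, threshold 0.05), in R 4.3.3, and checked on simulated data. SE is the log2 fold change over the root of F. Alternatives were DESeq2 1.42.0, other scalings, filters and depths, a replicate block and left-out replicates or libraries. Promoter windows came from RefSeq, exon lengths from GENCODE M21. Counting intervals cover counting error only.

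The members and lists were chosen with earlier results of these data known. Named genes were the members, the label checks Smarca5, Trim21 and Gdf9, up to 4 called genes of each list with the smallest p after maternal deletion, the 5 genes most like Gata1 and Gata3 and the genomic neighbours. Replicates 1 and 2 of the deletion experiment were on different lanes, per the file headers. There a number marks a lane that both groups shared. The reported fit has no term for it, and the replicate block was an alternative. The deviations of same-numbered groups correlated at 0.54, over 2 shared numbers, which alone cannot settle a further batch. Embryos of 1 replicate share a pool, and p-values measure the spread between embryos.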

Additional observations from a re-analysis of the deposited data

Results flagged for a closer look

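In groups of 4 to 10 embryos of 1 replicate number, 7 values stood apart from the others of their group by Dixon's test on log2(CPM + 1), which flags about 1 in 20 groups by chance. Of the 10 IgG embryos of replicate 3, 1 had 0 CPM of Gata1, with the next at 11.8 CPM, and that embryo also had the highest Gata3 of its replicate, 38.2 CPM. Of the 7 anti-SMARCA5 embryos of replicate 3, 1 had 3.67 CPM of Gata1, with the next at 0.499 CPM. Of the 5 uninjected embryos of replicate 3, 1 had 1.03 CPM of Gata2, with the next at 32.5 CPM, and it had the highest Gata1 and Gata4 of the 5, at 88.9 and 215 CPM. Of the 10 uninjected embryos of replicate 1, 1 had 54.7 CPM of Gata4, with the next at 96.6 CPM. Of the 10 IgG embryos of replicate 1, 1 had 50.9 CPM of Gata6 from 87 counts, with the next at 3.68 CPM, and it also had the lowest Gata1 (4.68 CPM) and the highest Gata3 (17.0 CPM) of its replicate. Of the 8 Smarca5 +/+ embryos of replicate 1, 1 had 13.3 CPM of Gata2 and 1.90 CPM of Gata6, from 7 counts and 1 count, with the next at 1.80 and 0 CPM.

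Libraries left out for depth still held counts of members, while the 3 wells without an embryo held 0. In 2 Smarca5 +/+ libraries of replicate 2, with 67663 and 51868 counts in all, Gata1 had 31 and 19 counts and Gata4 21 and 20. An uninjected library of 89203 counts had 20 counts of Gata1 and 4 of Gata4. A maternal deletion library of 69056 counts had 9 counts of Gata2, 8 of Gata3 and 6 of Gata4. An IgG library of replicate 2, with 17974 counts, had 5 counts of Gata4.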

How the results depend on the processing

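Gata1, Gata2, Gata3 and Gata4 kept their direction and their call in the maternal deletion comparison in 44 of 45 fits under alternatives. The exception, chosen after seeing the data, was Gata4 without replicate 2 and with no filter on low counts, at -1.31 (edgeR adjusted p = 0.0547). Left-out replicates gave 2.58 to 5.51 for Gata3, -2.15 to -1.20 for Gata4, and with the added fit -3.89 to -2.62 for Gata1 and 2.79 to 4.33 for Gata2. The replicate block gave -3.11, 3.74, 4.24 and -1.82 for Gata1 to Gata4 and changed no call. In the TrimAway comparisons 11 of 148 values of members moved by more than the SE of the value reported, among them Gata1 against IgG to -3.19 with the replicate block, Gata2 and Gata3 against IgG to 2.24 and 3.09 without replicate 3, and Gata3 against uninjected embryos to 3.62 with library totals and 5.16 without replicate 1.

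Counts of called genes were less steady. After maternal deletion 4825 became 10416 with no filter, 4907 with the replicate block, and 2801 to 3879 without a replicate. Against IgG 317 became 64 with library totals, 1007 with DESeq2, 3010 with no filter, 150 and 623 with a minimum depth of 500000 and none, 521 without the library lacking Trim21, 175 without the anti-SMARCA5 library with high Lyz2 (chosen after seeing the data), and 0 to 591 without a replicate. With the replicate block it was 2691. The labels do not say that a number marks the same day or batch across these groups, and 2 shared numbers, with a correlation of deviations of 0.57, cannot settle it. Against uninjected embryos 2999 became 6184 with no filter, 3426 with the block, and 1 to 2921 without a replicate. IgG against uninjected went from 0 to 261 with DESeq2, 881 with no filter and up to 1 without a replicate. The difference between collections went from 65 to 678 with no filter. The cause was not tested, beyond fewer samples or more genes in the fit.

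Depth limits low genes: of 75 detection counts under other thresholds or thinning, 15 moved by over 1.5 times, all for Gata2, Gata3 or Gata6.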
